A study of Homo sapiens with 6 samples.

Results

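The 9 genes described here encode immunoglobulin-like and related proteins that hold epithelial cells together at their surface: MPZL1, MPZL2 and MPZL3, EPCAM, CEACAM1, CEACAM5 and CEACAM6, and NECTIN1 and NECTIN2. They were found by symbol, and all 9 are among the 26490 gene symbols of the count table. The members were chosen by protein family and with their counts in knockdown and control already known, and MPZL2 was picked as the leading gene for a large rise with little spread. The differences of the 9 genes between the groups are therefore given as a description.

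RNA-seq was run on cells labelled SW403, an established colon adenocarcinoma cell line. The identity of the line is known from the labels only and was not tested. A control group of 3 libraries labelled wild type was compared with 3 libraries with IRS2 knockdown. IRS2 encodes an adaptor that couples the insulin and IGF1 receptors to intracellular kinases. All cultures were kept for 24 h in DMEM with 10% fetal bovine serum and received no treatment. The sample titles and genotype labels call the second group a knockdown, while the names of its count columns carry the letters KO; the word knockdown is used here. The labels do not say how IRS2 was lowered, what the letters NS in the control names stand for, or whether the 3 cultures of a group derive from 1 clone or several, so p-values measure the spread between these cultures.

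The MPZL proteins are single-pass membrane proteins that carry a V-type immunoglobulin domain outside the cell. Nectins are immunoglobulin-like molecules that bind each other across cell contacts and are tied to actin by afadin. CEACAM proteins are immunoglobulin-like glycoproteins of the epithelial surface, some of them membrane-spanning and some held by a lipid anchor. EPCAM is a cell surface glycoprotein of epithelia with a fold of its own.

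Depth differed between the groups, with 11816973 to 12585013 counts per library in control and 14329348 to 18114656 in knockdown. IRS2 was at 32.4, 34.8 and 32.2 CPM (the counts of a gene scaled to the total of its library) in control and at 13.0, 12.3 and 11.9 CPM in knockdown. Of 10 colon epithelial markers checked, 5 were expressed highly enough to be tested, with KRT8 at 1106 CPM and CDX2 at 77.7 CPM in control. The defining markers KRT20 and CDX1 had no count in any library, LGALS4 and CDH17 were at or near 0, and CDH1, the E-cadherin gene, was at 0 to 0.398 CPM. The summed level of the 10 markers was 2495 to 2598 CPM in control and 2332 to 2421 CPM in knockdown. In control most of this sum came from KRT8, KRT18 and KRT19, with means of 1106, 1131 and 230 CPM. Fibroblast markers summed to 9.56 to 28.1 CPM in control and 5.98 to 7.45 CPM in knockdown, leukocyte markers to at most 4.06 CPM and endothelial markers to at most 1.12 CPM. Of the 8 fibroblast markers 3 were tested, and COL1A1 and COL3A1 were called lower in knockdown (log2 fold changes -1.15 and -1.71, edgeR adjusted p 0.0029 and 0.0136). Control replicate 1 stood apart in these genes, with COL1A1 at 15.3 CPM against 5.73 and 5.67 CPM in the other control and 3.63 to 4.26 CPM in the knockdown libraries, and COL3A1 overlapped between groups. Without control replicate 1 the log2 fold change of COL1A1 was -0.50 (edgeR adjusted p 0.0325) and that of COL3A1 was -1.04 and not called (0.179), and the same number of members, 5, was called. Without knockdown replicate 2 COL3A1 was not called either (-1.31, edgeR adjusted p 0.0766), and DESeq2 did not call COL1A1 (-1.13, adjusted p 0.083). KRT19 was lower (-0.47, edgeR adjusted p 4.35e-08). CDX2 was slightly higher (0.14, edgeR adjusted p 0.0148), a call lost without control replicate 1 (0.12, edgeR adjusted p 0.0668), without knockdown replicate 2 (0.13, 0.0644), with library size alone (0.11, 0.0502) and in DESeq2 (0.15, adjusted p 0.063). The part of these markers in the results below was not tested. In a bulk sample, fewer cells of a kind and less RNA per cell cannot be told apart.

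MPZL2, MPZL3, CEACAM1 and NECTIN1 were higher in knockdown, EPCAM was lower, MPZL1 and NECTIN2 did not pass the threshold, and CEACAM5 and CEACAM6 were hardly or not detected. Calls were made with edgeR's quasi-likelihood test over all genes at an adjusted p of 0.05. Of the 9 genes, 7 had enough counts to be tested and 5 of these were called. Over all 13832 tested genes 38.5% were called, 19.3% higher and 19.2% lower (2676 and 2653 genes). A correction for the length and GC content of transcripts that was not centred in each library moved the median log2 fold change of all genes to 0.07, and 4335 genes were then called higher and 1835 lower. The CPM values of control and knockdown were fully separate for the same 5 of 7 tested members, and for 48.4% of all tested genes. The median log2 fold change was 0.39 over the 7 genes and -0.0039 over all tested genes. These counts only describe genes that were chosen with this comparison in view.

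**Figure D1:**
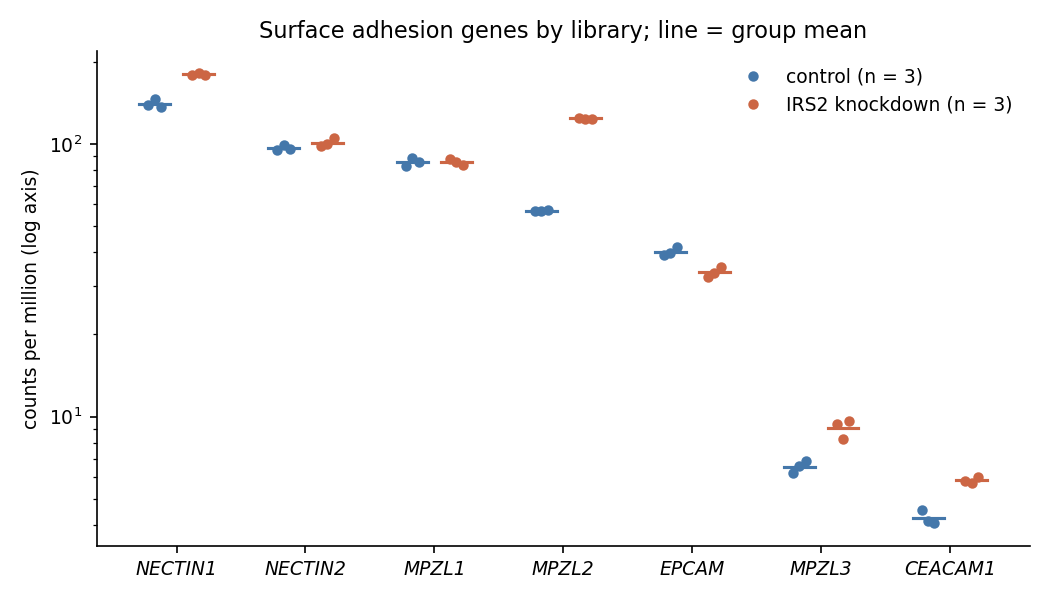
CPM of the 7 tested genes (log axis) in each of the 3 control (blue) and 3 IRS2 knockdown (orange) libraries, with the group mean as a line. MPZL2 moved from 57.0 to 124 CPM with its 3 points nearly on top of each other, and MPZL1 and NECTIN2 overlapped between groups.

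MPZL2 encodes epithelial V-like antigen, which mediates adhesion between like cells in epithelia. The gene lies on chromosome 11 of GRCh37 (118124131 to 118135251, minus strand), and its canonical transcript has 6 exons. It had 717, 714 and 674 counts in control and 1790, 2108 and 2242 counts in knockdown. Scaled to depth these were 57.0, 56.8 and 57.0 CPM in control and 124.9, 123.5 and 123.8 CPM in knockdown. The groups were far apart, and within each group the libraries were nearly equal. The log2 fold change was 1.15 ± 0.04 (SE), a 2.22-fold rise. Ranked by the size of the rise, MPZL2 stood at place 15 among the 2486 genes called higher whose counts averaged 100 or more.

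The small spread of MPZL2 was below what counting alone gives. The standard deviation of its log2 CPM within groups was 0.00638, while Poisson error at its counts would give 0.0447. Of the 3968 genes nearest in abundance, within a factor of 2 in mean count, 0.0756% had a smaller standard deviation, and the median was 0.0504. MPZL2 was chosen for this property, so it is given as a description only. The SE of its fold change is the better measure of its error, because its dispersion draws in part on other genes. The small spread of MPZL2 still enters that SE, since the dispersion is also estimated from the gene itself. The other 6 tested members had within-group standard deviations of 0.0341 to 0.0985.

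MPZL3, which codes for a related membrane protein with a role in skin and sebaceous glands, sits directly downstream of MPZL2 on the same strand (118097405 to 118123080). It was far less abundant, with 78, 83 and 81 counts in control and 135, 141 and 174 counts in knockdown. The levels were 6.20, 6.61 and 6.85 CPM in control and 9.42, 8.26 and 9.61 CPM in knockdown, and the groups did not overlap. Its log2 fold change was 0.50 ± 0.12 (SE). Both neighbours on chromosome 11 thus were higher in knockdown, with MPZL3 at the smaller difference. MPZL1, on chromosome 1, encodes a receptor that binds the tyrosine phosphatase SHP2 through its cytoplasmic tail. MPZL1 was at 82.7, 88.8 and 85.6 CPM in control and at 88.2, 85.8 and 83.5 CPM in knockdown. These groups overlapped (log2 fold change 0.03 ± 0.04 SE, edgeR adjusted p 0.607).

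Per length of transcript the balance within the MPZL family shifted. CPM was divided by the length of the canonical transcript, which is 4978 nt for MPZL1, 2622 nt for MPZL2 and 3983 nt for MPZL3. On this scale MPZL2 supplied 54.5%, 52.7% and 53.5% of the family's summed level in control and 70.3%, 70.9% and 71.1% in knockdown. MPZL1 went from between 41.6% and 43.3% to between 25.3% and 26.2%. MPZL3 supplied 3.90%, 4.03% and 4.23% in control and 3.49%, 3.12% and 3.63% in knockdown, lower in all 3 knockdown libraries. These shares restate the rise of MPZL2, for which it was chosen, since a larger sum lowers the shares of the others. The mean of MPZL3 itself rose from 6.55 to 9.10 CPM, and that of MPZL1 was 85.7 CPM in control and 85.9 CPM in knockdown.

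Among all members the order of levels changed at the top. In control the order by CPM per kb of transcript was NECTIN2 (36.0 ± 0.771), EPCAM (26.0 ± 0.926), NECTIN1 (23.6 ± 0.768), MPZL2 (21.7 ± 0.0381), MPZL1 (17.2 ± 0.607), MPZL3 (1.65 ± 0.0833) and CEACAM1 (1.22 ± 0.0717; SD, n = 3 each). In knockdown MPZL2 came first at 47.3 ± 0.284, ahead of NECTIN2 at 37.6 ± 1.44, NECTIN1 at 30.2 ± 0.252 and EPCAM at 21.9 ± 0.889 CPM per kb (SD, n = 3 each). No 2 neighbours among these 7 genes overlapped in either group. The order rests on canonical transcript lengths, and which isoforms these cells use was not examined.

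**Figure D2:**
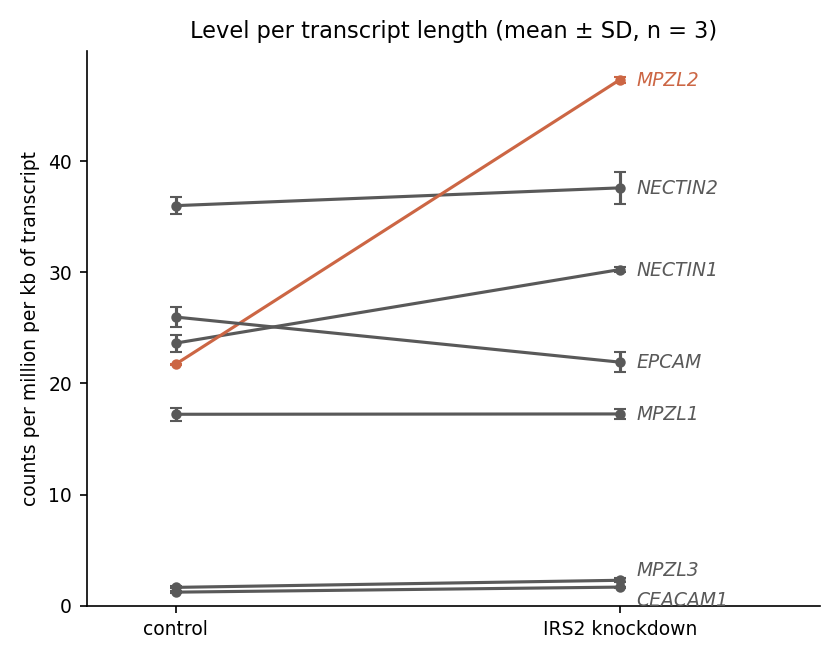
Level of the 7 tested genes in CPM per kb of canonical transcript, mean and SD of 3 libraries per group, joined across groups. MPZL2 (orange) rose from the fourth place at 21.7 to the first at 47.3, EPCAM went from the second place to the fourth, and NECTIN1 kept the third.

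Of the nectin genes NECTIN1 was called higher and NECTIN2 was not called. NECTIN1 (chromosome 11, 119494120 to 119599910) encodes nectin-1, an adhesion molecule of adherens junctions that also serves as an entry receptor for herpes simplex virus. NECTIN1 was at 139.5, 145.7 and 136.8 CPM in control and at 179.8, 181.8 and 178.8 CPM in knockdown. All knockdown libraries were above all control libraries, and the log2 fold change was 0.39 ± 0.04 (SE), a 1.31-fold rise. NECTIN2, on chromosome 19, encodes a nectin that is also a ligand of receptors on natural killer and T cells. It was at 95.4, 99.2 and 95.8 CPM in control and at 98.0, 99.9 and 105.4 CPM in knockdown, with 1 knockdown value inside the control range. The log2 fold change of NECTIN2 was 0.09 ± 0.04 (SE) and did not pass (edgeR adjusted p 0.0853). It passed when all libraries were thinned to the depth of the smallest (0.11, edgeR adjusted p 0.0371) and with the length and GC correction that was not centred (0.13, edgeR adjusted p 0.00761). Over the alternatives its adjusted p ranged from 0.00761 to 0.299. The difference between the changes of the 2 nectins was not tested.

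EPCAM, on chromosome 2 (47572297 to 47614740), encodes the epithelial cell adhesion molecule used to capture carcinoma cells from blood. It was the one tested member called lower in knockdown. It had 492, 498 and 494 counts in control and 467, 576 and 640 in knockdown, where depth was greater. These are 39.1, 39.6 and 41.8 CPM in control and 32.6, 33.8 and 35.3 CPM in knockdown. The groups did not overlap, but the gap between them was small, and the log2 fold change was -0.21 ± 0.06 (SE). DESeq2's Wald test did not call EPCAM (log2 fold change -0.21, DESeq2 adjusted p 0.0707). The call was also lost with the length and GC correction that was not centred (-0.12, edgeR adjusted p 0.0641). Over the 19 alternative fits its log2 fold change lay between -0.25 and -0.12.

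The CEACAM genes lie on chromosome 19. Of CEACAM1, CEACAM5 and CEACAM6, only CEACAM1 was expressed at a level that could be tested. CEACAM1 encodes a membrane-spanning receptor whose long form recruits tyrosine phosphatases. It had 57, 52 and 48 counts in control and 83, 97 and 109 counts in knockdown. The levels of CEACAM1 were 4.53, 4.14 and 4.06 CPM in control and 5.79, 5.68 and 6.02 CPM in knockdown, without overlap. The log2 fold change was 0.49 ± 0.14 (SE). DESeq2's Wald test did not call it (log2 fold change 0.50, DESeq2 adjusted p 0.102), and over the alternatives the adjusted p ranged from 0.00313 to 0.102. CEACAM5, which encodes carcinoembryonic antigen, the serum marker of colorectal cancer, had 0 counts in all 6 libraries. CEACAM6, its lipid-anchored paralogue, had 1 count in control replicate 1 and 0 in the other libraries. At 3 counts per library, a count of 0 allows a level of up to 0.166 to 0.254 CPM, counting error only. CEACAM4, CEACAM7 and CEACAM8, further members of the family, also had no count. CEACAM genes are close in sequence and how shared reads were assigned is not given in the sources used here, so the level of CEACAM1 carries that uncertainty.

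The sequence before the start of 5 of the 9 genes is in the RefSeq promoter set (GRCh38.p14), and MPZL2, MPZL3, EPCAM and NECTIN1 are not shown. The set serves to compare the CEACAM paralogues, of which CEACAM1 alone could be tested, with 2 well-expressed members. The 120 bases that end just before the start are given 5′ to 3′ on the strand of the gene, with each CG pair in capitals. They lie at chr19:44846177-44846296 (plus strand) for NECTIN2, chr1:167721862-167721981 (plus) for MPZL1, chr19:42528482-42528601 (minus) for CEACAM1, chr19:41708506-41708625 (plus) for CEACAM5 and chr19:41755410-41755529 (plus) for CEACAM6.
NECTIN2: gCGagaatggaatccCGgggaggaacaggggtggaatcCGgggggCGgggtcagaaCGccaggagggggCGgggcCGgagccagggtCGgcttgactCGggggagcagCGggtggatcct
MPZL1: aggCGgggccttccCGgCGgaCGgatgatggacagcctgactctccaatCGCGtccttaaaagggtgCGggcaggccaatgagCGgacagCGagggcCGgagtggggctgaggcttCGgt
CEACAM1: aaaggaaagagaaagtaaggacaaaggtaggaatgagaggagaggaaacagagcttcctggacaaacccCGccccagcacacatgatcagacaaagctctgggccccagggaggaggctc
CEACAM5: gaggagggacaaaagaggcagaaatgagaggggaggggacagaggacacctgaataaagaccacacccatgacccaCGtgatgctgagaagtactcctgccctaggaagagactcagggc
CEACAM6: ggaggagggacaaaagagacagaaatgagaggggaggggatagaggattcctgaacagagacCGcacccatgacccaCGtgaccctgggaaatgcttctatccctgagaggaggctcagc

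In the 250 bases before the start, NECTIN2 had 19 CG pairs and MPZL1 had 26, against 1 in CEACAM1, 2 in CEACAM5 and 5 in CEACAM6. The median over all 35116 promoters of the set was 11. The 3 CEACAM windows lay below that median, CEACAM1 included. Aligned over these bases, CEACAM5 and CEACAM6 were identical at 73.6% of columns, CEACAM1 and CEACAM6 at 67.0%, and CEACAM1 and CEACAM5 at 63.5%. The letters CACGTG, which read the same on both strands and are known as a binding word of USF and MYC family factors, occurred once in CEACAM5 (first base 46 before the start) and once in CEACAM6 (45 before). They did not occur in the CEACAM1, NECTIN2 or MPZL1 windows. They occurred in 6.34% of all promoters. These matches describe the letters only.

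Genes with related roles were then counted, to set the members beside the rest of the adhesion machinery. These are 6 lists with 63 genes, which hold none of the members. The lists were written from general knowledge, but with earlier results of these data known, so their counts are a description. Of the 63 genes, 43 could be tested and 22 were called in edgeR, 14 higher and 8 lower. DESeq2's Wald test called 9 of them higher, and 1945 of the 15331 genes to which it gave an adjusted p. The median log2 fold change of the 43 genes in edgeR was 0.07. The genes called in edgeR are 51.2% of those tested, against 38.5% of all genes. The small counts per list below stand beside 19.3% called higher and 19.2% called lower over all tested genes. Below, CPM means are followed by the SD over 3 libraries (n = 3 in each group) and log2 fold changes by their SE. In 25 of the 43 tested related genes the groups did not overlap. Over all tested genes the share was lower, at 48.4%.

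**Figure D3:**
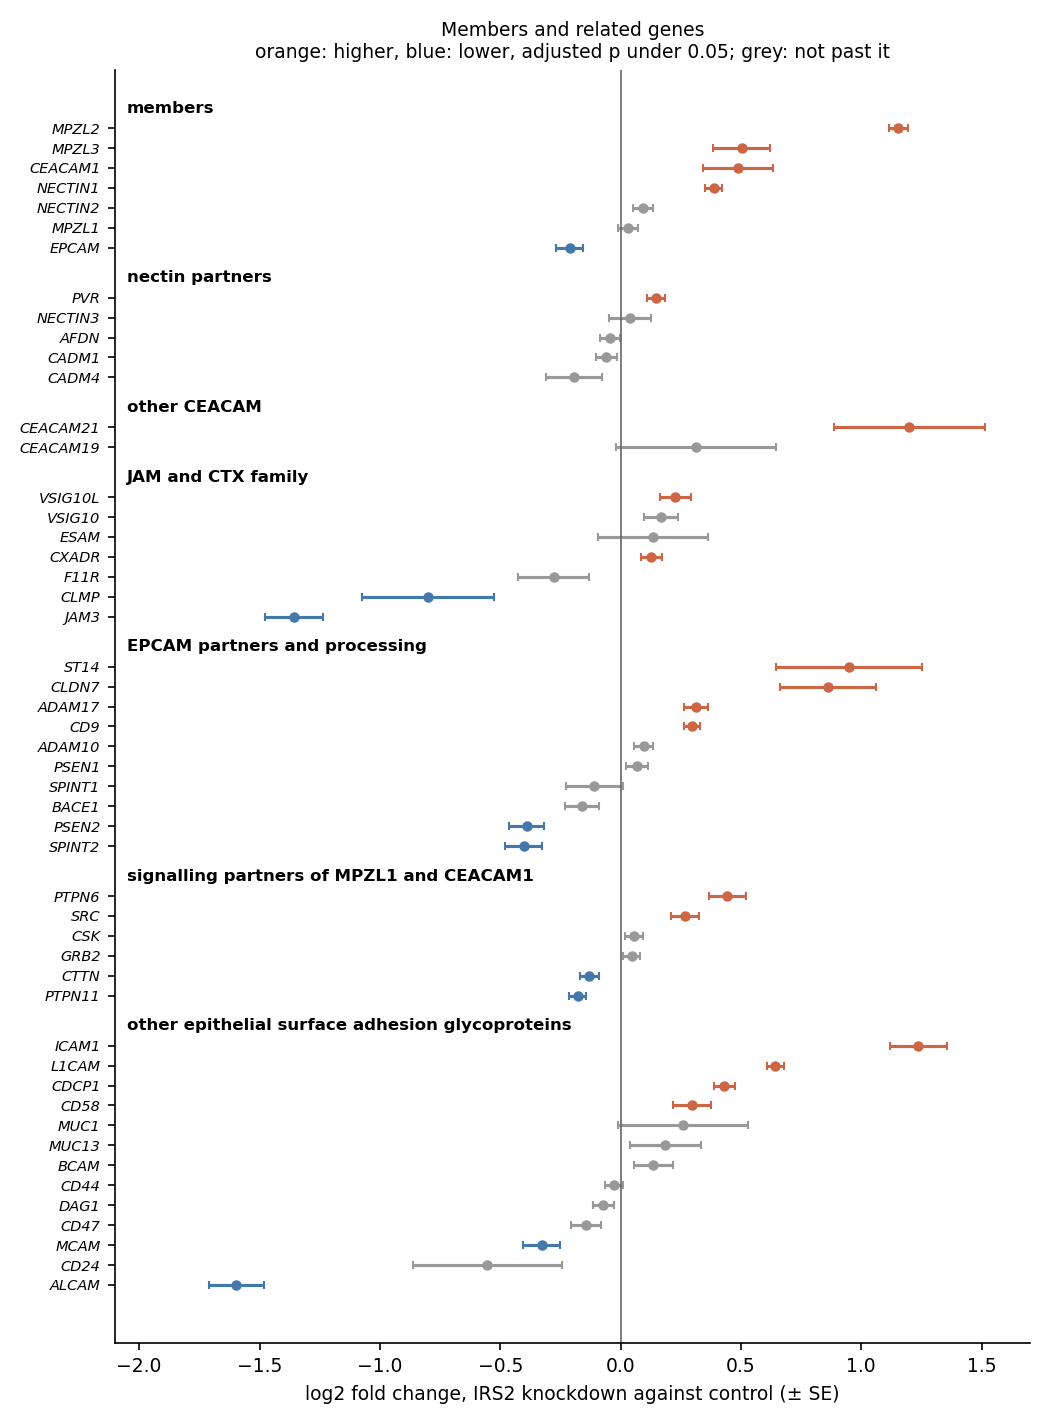
Log2 fold change of knockdown against control with its SE for the 7 tested members and the 43 tested related genes, by list. Orange genes were called higher and blue genes lower in edgeR at an adjusted p of 0.05, and grey genes were not called. Changes in both directions occur in 4 of the 6 lists.

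The MPZL proteins share the V-type immunoglobulin domain with adhesion molecules of the junctional and coxsackievirus receptor type. Of 13 genes of that type, 7 were tested, 2 were higher and 2 lower. JAM3, a junctional adhesion molecule, fell from 13.4 ± 0.681 to 5.10 ± 0.805 CPM (log2 fold change -1.36 ± 0.12, edgeR adjusted p 4.82e-08). VSIG10L rose slightly (0.23 ± 0.06, edgeR adjusted p 0.00703), a call that DESeq2 did not make (adjusted p 0.0793). CXADR, the coxsackievirus and adenovirus receptor gene, rose from 68.3 ± 3.39 to 73.0 ± 0.781 CPM (log2 fold change 0.13 ± 0.05, edgeR adjusted p 0.0307). The CXADR call was lost in 7 of 19 alternative fits. It was lost with upper-quartile factors (edgeR adjusted p 0.0671), with library size alone (0.0985) and in DESeq2 (0.118). It was also lost without control replicate 1 (log2 fold change 0.11, edgeR adjusted p 0.0971), control replicate 2 (0.11, 0.127), knockdown replicate 2 (0.13, 0.0704) or knockdown replicate 3 (0.12, 0.0726). CLMP, an adhesion molecule of the coxsackievirus receptor group, fell from 2.29 ± 0.639 to 1.27 ± 0.314 CPM (edgeR adjusted p 0.026). The CLMP call was lost without control replicate 2 (log2 fold change -0.54, edgeR adjusted p 0.196) and without knockdown replicate 1 (-0.63, 0.106), and in DESeq2 (-0.81, adjusted p 0.143).

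Of 11 nectin partners, 5 were tested and only PVR, the poliovirus receptor and a nectin-like molecule, was called. PVR rose from 133.9 ± 2.90 to 145.3 ± 4.78 CPM (log2 fold change 0.15 ± 0.04, edgeR adjusted p 0.00366). AFDN, the afadin gene, and NECTIN3 had log2 fold changes of -0.04 and 0.04 and did not pass (edgeR adjusted p 0.465 and 0.762). Of the 9 other CEACAM genes, 5 had no count in any library and 2 were tested. CEACAM21 rose from 0.623 ± 0.0615 to 1.40 ± 0.145 CPM (edgeR adjusted p 0.00504), a call that DESeq2 did not make (adjusted p 0.0785).

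EPCAM is cut at the cell surface by metalloproteases and within the membrane by presenilin-containing gamma-secretase, and it associates with claudin-7 and tetraspanins. Of 11 genes of this kind 10 were tested, 4 of them higher and 2 lower. ADAM17, a protease that sheds membrane proteins, rose from 52.9 ± 2.62 to 64.2 ± 2.41 CPM (log2 fold change 0.31 ± 0.05, edgeR adjusted p 5.9e-05). CD9, a tetraspanin, rose from 176.4 ± 2.57 to 212.3 ± 4.25 CPM (0.30 ± 0.03, edgeR adjusted p 1.01e-06). At low levels, CLDN7, the claudin-7 gene, rose from 2.32 ± 0.468 to 4.15 ± 0.523 CPM (0.86 ± 0.20, edgeR adjusted p 0.00203). ST14 rose from 0.835 ± 0.143 to 1.58 ± 0.357 CPM (0.95 ± 0.30, edgeR adjusted p 0.0181). In control CLDN7 had 33, 32 and 21 counts and ST14 had 12, 11 and 8. Whether the calls of CLDN7 and ST14 hold in DESeq2 or the other alternative fits was not examined gene by gene. PSEN2, a presenilin, fell by 0.39 and SPINT2, an inhibitor of surface serine proteases, fell by 0.40 on the log2 scale (edgeR adjusted p 0.000332 and 0.000365).

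MPZL1 and CEACAM1 signal through the phosphatases encoded by PTPN11 (SHP2) and PTPN6 (SHP1), and MPZL1 is phosphorylated by SRC. Of 6 genes of this step, 2 were higher and 2 lower. PTPN6 rose from 18.1 ± 1.63 to 24.1 ± 1.06 CPM (log2 fold change 0.44 ± 0.08, edgeR adjusted p 0.000136), and SRC had a log2 fold change of 0.27 ± 0.06 (edgeR adjusted p 0.0013). PTPN11 fell from 306.8 ± 9.75 to 265.5 ± 7.13 CPM (log2 fold change -0.18 ± 0.03, edgeR adjusted p 0.000334). CTTN, the cortactin gene, fell by 0.13 on the log2 scale (edgeR adjusted p 0.0143), and this call was lost without control replicate 1 (-0.09, edgeR adjusted p 0.0939) and in DESeq2 (-0.12, adjusted p 0.058).

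Of 13 other surface adhesion glycoproteins, all tested, 4 were higher and 2 lower. L1CAM, an adhesion molecule of neurons also found in carcinomas, rose from 121.6 ± 2.93 to 186.2 ± 5.06 CPM (log2 fold change 0.64 ± 0.04, edgeR adjusted p 1e-10). ICAM1, a ligand of leukocyte integrins, rose from 6.56 ± 1.23 to 15.2 ± 1.25 CPM (1.24 ± 0.12, edgeR adjusted p 1.32e-07). ALCAM, the activated leukocyte cell adhesion molecule, fell from 14.5 ± 0.408 to 4.66 ± 0.60 CPM (-1.60 ± 0.11, edgeR adjusted p 2.77e-09). MCAM, first described on melanoma cells, fell by 0.33 on the log2 scale (edgeR adjusted p 0.00187). CD44, the hyaluronan receptor, measured 177.3 ± 9.60 CPM in the control and 170.4 ± 2.47 CPM in the knockdown libraries and did not pass (edgeR adjusted p 0.619).

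The surroundings of MPZL2 on chromosome 11 held genes that moved to different degrees. Within 250 kb of its start the GRCh37 annotation places 11 genes of the count table, of which 5 were tested. MPZL3 starts 12.2 kb downstream of the MPZL2 start. SCN4B, a sodium channel subunit gene 111.7 kb downstream, rose from 1.97 ± 0.504 to 3.65 ± 0.0920 CPM (log2 fold change 0.92 ± 0.21, edgeR adjusted p 0.00171). It had only 32, 20 and 21 counts in control. JAML, SCN2B and TMPRSS4, also downstream, had 0 to 3 counts per library and were not tested. On the other side, UBE4A, a ubiquitin ligase gene, rose by less (0.25 ± 0.05, edgeR adjusted p 0.000501), ATP5MG, an ATP synthase subunit gene, fell (-0.14 ± 0.04, edgeR adjusted p 0.00607, but -0.03 and 0.545 with the length and GC correction that was not centred) and KMT2A, a histone methyltransferase gene, did not pass (0.10 ± 0.08, edgeR adjusted p 0.348). KMT2A was called in 5 alternative fits. These were without a low-count filter (0.11, edgeR adjusted p 0.0248), with the length and GC correction (0.12, 0.0305), with that correction and the replicate block (0.12, 0.0387), with that correction not centred (0.19, 0.000934) and without knockdown replicate 3 (0.21, 0.004). The T cell genes CD3D, CD3E and CD3G, which encode CD3 chains, lie between UBE4A and MPZL2 and were at 0 or near 0.

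**Figure D4:**
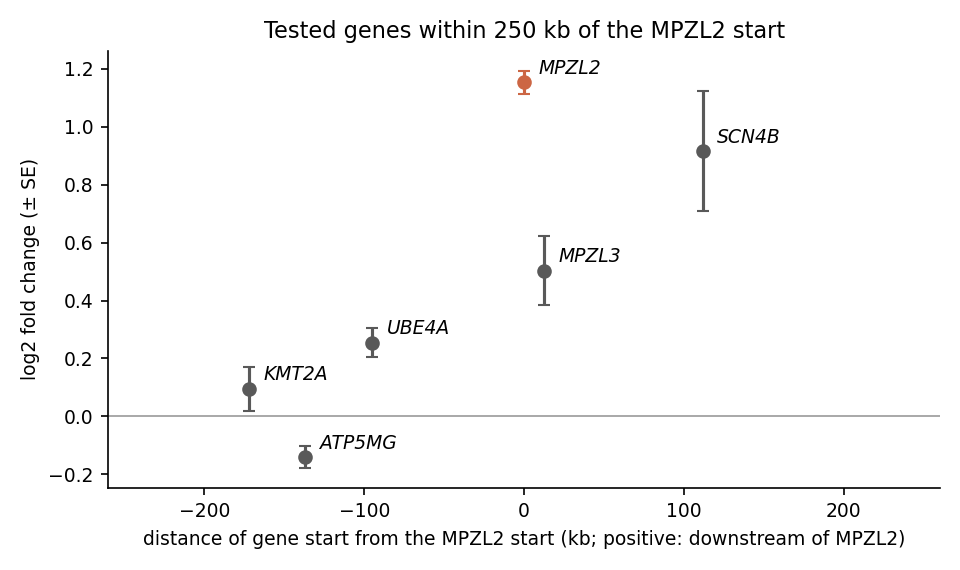
Log2 fold change with its SE against the distance of each tested gene's start from that of MPZL2, in kb, positive downstream. MPZL2 (orange, 1.15) stands above MPZL3 (0.50) and SCN4B (0.92), while the tested genes on the other side lie between -0.14 and 0.25. Genes with too few counts to be tested, which lie on both sides, are not drawn.

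Genes with a profile like that of MPZL2 were sought by the distance between log2 CPM profiles over the 6 libraries, each set to its own control mean. Candidates were the tested genes averaging 100 counts or more. The 5 nearest were CHN2, a Rac GTPase-activating protein (distance 0.0825), TMEM132E (0.103), ABAT, the GABA transaminase gene (0.136), CLDN4, a claudin of tight junctions (0.144), and DOCK11, a guanine nucleotide exchange factor (0.178). CHN2 rose from 14.4 ± 0.163 to 30.5 ± 0.263 CPM. CLDN4, the most abundant of the 5, rose from 75.5 ± 2.68 to 157.9 ± 6.0 CPM. The distance mostly reflects the step between groups, since the 3 libraries of a group differ little.

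**Figure D5:**
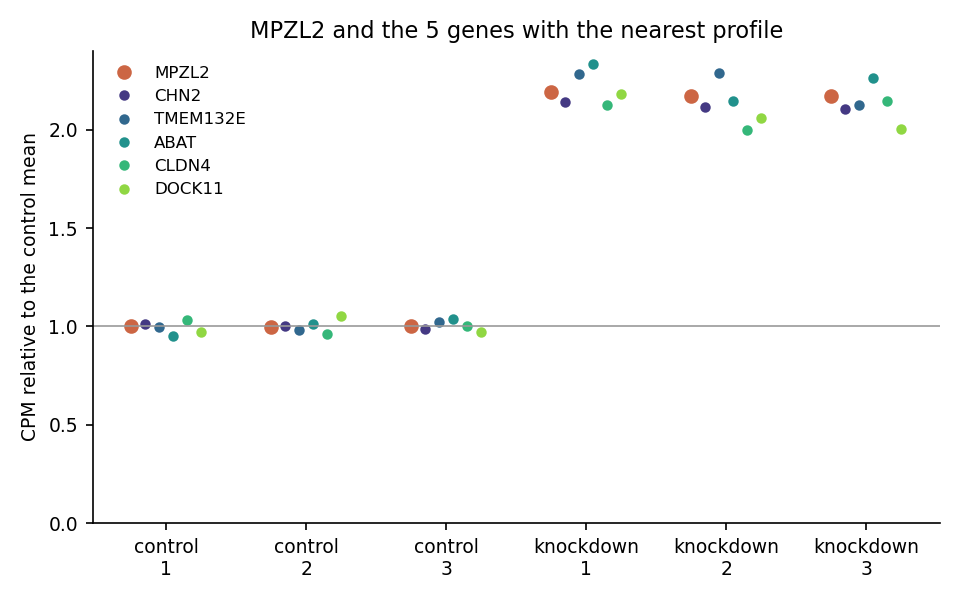
CPM relative to the control mean in each library for MPZL2 (large orange points) and the 5 genes with the nearest profile. All 6 genes lie near 1 in the control libraries and between 2.0 and 2.33 in the knockdown libraries.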

How the data were processed

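Total RNA (1000 ng per library) was sequenced from 6 cultures labelled SW403. The authors deposited read counts per gene symbol, and a second table of normalized signal, which equals the deposited counts divided by 1 constant per library (0.847 to 1.25) for the 16213 genes with a summed count of at least 10. Per the submitters' processing notes, STAR 2.6.1a, Salmon, DESeq2 and hg19 were used, in roles not given there. The library kit named in the labels is not described there as keeping strand, so antisense reads cannot be told apart.

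Counts were tested across all genes with edgeR 4.0.16 (R 4.3.3; TMM, filterByExpr, quasi-likelihood F-test, group as the only term, Benjamini-Hochberg adjustment, threshold 0.05). The SE of a log2 fold change is its size over the root of the F statistic. With 3 against 3, an exact permutation test of 1 gene cannot go below 0.1. Replicate pairs differed by more than counting error (chi-square over degrees of freedom 1.39 to 2.84). Lengths and GRCh37 positions came from GENCODE 44, of the same assembly as hg19. Promoters were aligned with Biopython 1.88.

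The members, lists and tests were chosen with earlier results of these data known. Named were the members, IRS2, in each list the 2 genes with the smallest p per direction (all called genes where 3 or fewer were), tested genes within 250 kb of the MPZL2 start, and the 5 nearest profiles (prior count 2). Markers, AFDN, NECTIN3, CD44, CLDN7, ST14 and untested CEACAM, CD3 and other neighbouring genes were named after their values were seen. Of the genes first listed, 2 are not reported here and were left out of the list counts after the results were known. The alternatives were 3 other scalings, 2 other filters (none, or a mean of 50 counts), DESeq2 1.42.0, limma 3.58.1 with voom or on log2(deposited value + 1), thinned counts, a replicate block, a length and GC correction, a threshold of 0.01 and leaving out each library. The length and GC correction was centred in each library so that TMM set the scale; the form first run, not centred, is given as an alternative added after seeing the data. The script was checked on simulated counts.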

Additional observations from a re-analysis of the deposited data

How the results depend on the processing

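Of 662 log2 fold changes of 35 named genes under 19 alternative fits, 637 had the sign and the call of the reported value, 18 lost the call, 7 gained it and 0 changed sign. That of MPZL2 ranged from 1.12 to 1.24 and that of IRS2 from -1.42 to -1.33. DESeq2's Wald test called 1654 genes lower, against 2653, and 3599 in all, against 5329. It called 3 members, against 5, and 0 members lower, against 1 (EPCAM), with 1 member lower at an unadjusted p under 0.05. It called 9 related genes higher, against 14, and 1945 of all genes higher, against 2676. The cause was not tested. The reported edgeR test and limma each called 1 member lower. With the length and GC correction not centred in each library, an alternative chosen after seeing the data, 4335 genes were called higher, against 2676, and 0 members lower, with 1 at an unadjusted p under 0.05; that correction shifted the median of all genes to 0.07. Replicate numbers are shared by the groups, but the deviations of same-numbered libraries had correlations of 0.045, -0.011 and -0.098. Libraries 2 and 3 did not correlate best with their own number. With 3 libraries per group, these correlations cannot decide whether same-numbered cultures were handled together. With the replicate block 4862 genes were called, 5 members and 22 related genes as before, and the log2 fold change was 1.15 for MPZL2 and -1.39 for IRS2. For genes under 100 counts, such as CEACAM1 in control, depth limits the precision.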
